A study of Mus musculus with 2 samples.

Results

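The 34 genes described here make proteins that detect DNA damage, halt the cell cycle or mend the break, and they were chosen by symbol, with all 34 of 34 found among the 32285 genes of the count tables. They were followed in uterine cells of 2 groups of mice. The group called DOX plus AMH received doxorubicin at 3 mg/kg together with anti-Müllerian hormone at 0.75 mg/kg, and the group called DOX received doxorubicin alone at 3 mg/kg, so both carry the drug. The organs were collected at 4 h, and each group's 5 uteri were combined into 1 single-cell library. The series text describes a schedule of 2 weekly doses at postnatal day 25 for its bulk sequencing alone, and the schedule, strain and age behind these libraries are not stated in the labels. Untreated uterus was not analysed here, and no level is set against one. With 1 library per group there was no replicate and no test. Every interval given is a 95% interval for counting error only and leaves out the spread between cells, animals and pools.

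The libraries held 97887259 UMIs (unique molecular identifiers, each standing for 1 captured transcript) over 8083 barcodes in DOX plus AMH, and 129530270 over 9258 in DOX, from 10000 cells collected per group. After filters on depth, mitochondrial share and doublets, 6738 DOX plus AMH cells and 7431 DOX cells remained, with medians of 10100.5 and 13765 UMIs. The libraries shared 17 barcodes, 13 of them among the kept cells. Each cell was placed in a class by markers that include none of the 34 genes, and 1200 DOX plus AMH cells and 965 DOX cells met no class. The 8 classes with at least 50 cells in each library were compared, and a class is called "like" the cell type whose markers it carries. Stromal-like cells, the fibroblast-type cells under the uterine lining, were the largest, with 2855 cells in DOX plus AMH and 4345 in DOX. Smooth muscle-like cells numbered 1121 in DOX plus AMH and 943 in DOX, and epithelial-like cells 187 in DOX plus AMH and 324 in DOX. Squamous-like cells, 366 in DOX plus AMH and 6 in DOX, were not compared.

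Doxorubicin is an anthracycline that traps topoisomerase II on DNA and leaves double-strand breaks. A cell senses such breaks through the MRN complex and the kinases Atm and Atr, which mark the surrounding chromatin, stop the cycle through Chek1, Chek2 and Trp53, and call in repair. Homologous recombination copies the lost stretch from the sister chromatid and so works in S and G2 phase, whereas non-homologous end joining seals ends directly in any phase. Several genes of the recombination and Fanconi anaemia pathways are known to be transcribed mainly in cycling cells, from promoters bound by E2F factors.

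The promoters of Brca1, Bard1, Fanci, Fanca and Lig1 are shown here because they are the windows found for the 7 genes that were lower in DOX plus AMH stromal-like cells, as described below. They are RefSeq windows of the GRCm38.p6 build, 250 bases before to 50 after the start, written 5′ to 3′ on the strand of the gene. Capitals mark E2F letters (TTTCCCGC, TTTGGCGC, TTTCGCGC or TTTGCCGC), CHR letters (TTTGAA or TTCGAA) and CCAAT, each searched on both strands. None of the marked runs in the windows shown overlap each other.
Brca1 promoter, chr11:101551906-101552205, minus strand: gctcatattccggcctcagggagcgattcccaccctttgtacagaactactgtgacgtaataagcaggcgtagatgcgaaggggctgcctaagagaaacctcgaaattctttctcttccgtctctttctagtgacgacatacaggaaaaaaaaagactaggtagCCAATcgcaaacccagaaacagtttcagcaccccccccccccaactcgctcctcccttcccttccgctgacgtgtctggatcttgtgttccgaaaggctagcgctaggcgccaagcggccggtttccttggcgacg
Bard1 promoter, chr1:71102923-71103222, minus strand: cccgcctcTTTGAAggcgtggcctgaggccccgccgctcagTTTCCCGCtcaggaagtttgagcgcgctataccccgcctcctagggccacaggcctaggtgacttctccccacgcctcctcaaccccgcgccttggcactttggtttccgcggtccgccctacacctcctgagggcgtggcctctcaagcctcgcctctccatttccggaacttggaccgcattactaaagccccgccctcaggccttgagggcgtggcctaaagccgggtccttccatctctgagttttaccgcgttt
Fanci promoter, chr7:79392088-79392387, plus strand: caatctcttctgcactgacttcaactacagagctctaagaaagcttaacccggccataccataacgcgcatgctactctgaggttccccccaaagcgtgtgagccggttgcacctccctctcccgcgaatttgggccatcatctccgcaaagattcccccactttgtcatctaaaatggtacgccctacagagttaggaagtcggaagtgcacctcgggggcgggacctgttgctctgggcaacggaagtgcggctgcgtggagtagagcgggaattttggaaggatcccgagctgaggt
Fanca promoter, chr8:123318527-123318826, minus strand: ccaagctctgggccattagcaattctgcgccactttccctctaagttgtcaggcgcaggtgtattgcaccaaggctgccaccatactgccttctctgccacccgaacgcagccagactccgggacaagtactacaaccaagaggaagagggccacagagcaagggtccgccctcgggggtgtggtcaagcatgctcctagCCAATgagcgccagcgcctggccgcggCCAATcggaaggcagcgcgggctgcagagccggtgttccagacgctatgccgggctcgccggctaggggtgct
Lig1 promoter, chr7:13276925-13277224, plus strand: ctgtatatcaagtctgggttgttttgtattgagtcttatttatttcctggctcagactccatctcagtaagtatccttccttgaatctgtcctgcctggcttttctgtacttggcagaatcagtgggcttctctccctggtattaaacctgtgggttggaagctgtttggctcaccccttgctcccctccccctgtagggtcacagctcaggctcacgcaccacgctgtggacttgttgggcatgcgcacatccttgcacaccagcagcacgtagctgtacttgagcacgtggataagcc
Windows were found for 29 of the 34 genes, all but Rad50, Nbn, H2afx, Prkdc and Fancd2. Only the first window listed for each gene was used, and it need not sit at the start in the gene annotation. The Xrcc6 window begins at base 82016119 of chromosome 15, inside the gene, which is annotated from base 81987835. The Lig1 window ends before the annotated start of the gene at base 13277283. E2F letters were in 6 of the 29 (20.7%), Bard1, Brca2, Chek2, Mdc1, Msh6 and Xrcc6, against 2.32% of all 27025 promoters of the same length. CCAAT was in 16 of the 29 (55.2%), Brca1 among them, against 37.9% of all promoters, and CHR letters in 3 of the 29, Bard1, Atr and Ercc5, against 19.4%. Of the windows printed, Bard1 alone holds E2F letters, and those of Fanci and Lig1 hold none of the marked letters. A match describes the letters alone.

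In stromal-like cells, the transcripts that stood apart most were lower in DOX plus AMH, and they belonged to the recombination scaffold and the Fanconi anaemia pathway. Brca1, Bard1, Fancd2, Fanci, Fanca, H2afx and Lig1 were at least 1.3-fold lower in DOX plus AMH, while Atr, Brca2 and Palb2 were at least 1.3-fold higher. All 34 genes reached the minimum of 20 UMIs over both libraries in this class, so 7 of 34 were lower and 3 of 34 higher. Among all 17925 genes measured there, 8.65% were lower and 26.3% were higher by the same size. The median log2 ratio (DOX plus AMH over DOX) of the 34 was -0.04, against 0.17 for all genes. Scaling by the TMM method, which moves every ratio in this class by -0.20, gave 11 lower and 0 higher. That scaling moves the ratios of all genes too. No share of all genes was counted under it, here or in the other classes. Levels are given as CPM (UMIs scaled to the same total in every class and library), and since 3′ UMIs are not comparable between genes, each gene is read only against itself.

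Among the sensing and signalling genes, 1 of 8 was higher and 1 of 8 lower in stromal-like cells. The shares of all genes in the class were 26.3% higher and 8.65% lower. H2afx, the histone variant phosphorylated around breaks, had 13.8 CPM in DOX plus AMH and 25.7 CPM in DOX, a log2 ratio of -0.90 (-1.05 to -0.75), with intervals that did not overlap. Atr, the kinase that responds to single-stranded DNA at stalled forks, had 31.6 CPM in DOX plus AMH and 22.7 CPM in DOX, a log2 ratio of 0.48 (0.36 to 0.59), and it stayed positive under TMM scaling, at 0.28. Atm, the kinase recruited to double-strand breaks, had 29.1 CPM in DOX plus AMH and 26.3 CPM in DOX. Chek1, the kinase that Atr activates, had 2.48 CPM in DOX plus AMH and 2.86 CPM in DOX. Chek2, the kinase that Atm activates, had 4.31 CPM in DOX plus AMH and 5.16 CPM in DOX, and the log2 intervals of both checkpoint kinases spanned 0. Trp53bp1, which shields broken ends from resection, had 24.1 CPM in DOX plus AMH and 21.1 CPM in DOX. Mdc1, the reader of phosphorylated H2afx, had 8.03 CPM in DOX plus AMH and 8.91 CPM in DOX. Trp53, the transcription factor p53, had 49.0 CPM in DOX plus AMH and 47.0 CPM in DOX, a log2 ratio of 0.06 (-0.03 to 0.15), so its transcript lay close together in the libraries.

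The MRN complex, which holds and trims broken ends, did not reach the 1.3-fold size for any of its 3 genes. Rad50, its ATP-driven tether, had 58.2 CPM in DOX plus AMH and 62.3 CPM in DOX. Mre11a, its nuclease, had 15.9 CPM in DOX plus AMH and 14.9 CPM in DOX. Nbn, the subunit that recruits Atm, had 14.0 CPM in DOX plus AMH and 12.3 CPM in DOX.

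In homologous recombination 2 of 7 genes were lower and 2 of 7 higher in stromal-like cells. Among all genes of the class 8.65% were lower and 26.3% higher. Brca1, the scaffold that promotes resection, had 1.77 CPM in DOX plus AMH and 4.63 CPM in DOX, a log2 ratio of -1.39 (-1.82 to -0.98) from 57 UMIs in DOX plus AMH and 317 in DOX. Bard1, its partner in the ubiquitin ligase, had 1.46 CPM in DOX plus AMH and 3.02 CPM in DOX, a log2 ratio of -1.05 (-1.54 to -0.59). The intervals of the libraries were apart for both partners of that ligase. Brca2, a mediator of strand exchange, had 9.52 CPM in DOX plus AMH and 7.16 CPM in DOX, a log2 ratio of 0.41 (0.20 to 0.62). Palb2, the bridge between Brca1 and Brca2, had 2.88 CPM in DOX plus AMH and 2.02 CPM in DOX, a log2 ratio of 0.52 (0.12 to 0.91). Both stood higher in DOX plus AMH, opposite to Brca1, and under TMM scaling they were at 0.21 and 0.31, below the 1.3-fold size. Brca2 overlaps the gene Gm42531 on the same strand in the annotation, so its UMIs may be shared or lost there. Rpa1, the large subunit of the protein that coats single-stranded DNA, had 9.02 CPM in DOX plus AMH and 9.38 CPM in DOX. Rpa2, the subunit phosphorylated on damage, had 6.73 CPM in DOX plus AMH and 6.79 CPM in DOX. Rad51b, a gene of the recombination machinery, had 1017 CPM in DOX plus AMH and 974 CPM in DOX, a log2 ratio of 0.06 (0.04 to 0.08).

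All 3 Fanconi anaemia genes were lower in DOX plus AMH, against 8.65% of all genes, each from few UMIs. Fancd2, which is ubiquitinated at crosslinks, had 0.868 CPM in DOX plus AMH and 2.15 CPM in DOX, a log2 ratio of -1.31 (-1.95 to -0.72) from 28 UMIs in DOX plus AMH and 147 in DOX. Fanci, its partner, had 1.02 CPM in DOX plus AMH and 2.15 CPM in DOX, a log2 ratio of -1.07 (-1.66 to -0.52) from 33 UMIs in DOX plus AMH and 147 in DOX. Fanca, a subunit of the core ligase complex, had 0.496 CPM in DOX plus AMH and 1.05 CPM in DOX, a log2 ratio of -1.08 (-1.97 to -0.29) from 16 UMIs in DOX plus AMH and 72 in DOX. Their median log2 ratio was -1.08, and none of the 3 ratio intervals reached 0.

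None of the 6 end-joining genes reached the size in either direction. Xrcc5 and Xrcc6 encode the Ku subunits that cap broken ends. Xrcc5 had 31.8 CPM in DOX plus AMH and 28.5 CPM in DOX, and Xrcc6 had 22.6 CPM in DOX plus AMH and 18.1 CPM in DOX. Prkdc, the kinase that Ku recruits, had 16.9 CPM in DOX plus AMH and 16.6 CPM in DOX. Lig4, the ligase of this pathway, had 1.77 CPM in DOX plus AMH and 2.16 CPM in DOX. Xrcc4, which holds Lig4, had 52.0 CPM in DOX plus AMH and 42.2 CPM in DOX. Nhej1, the filament partner of Xrcc4, had 5.12 CPM in DOX plus AMH and 5.26 CPM in DOX, so the group showed log2 ratios between -0.29 for Lig4 and 0.32 for Xrcc6.

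In single-strand break repair and ligation, Lig1 alone of 4 genes reached the size. Lig1, the ligase that joins Okazaki fragments in replication and also serves repair, had 13.4 CPM in DOX plus AMH and 17.6 CPM in DOX, a log2 ratio of -0.40 (-0.56 to -0.24). Lig3, the ligase partnered with Xrcc1, had 15.5 CPM in DOX plus AMH and 12.7 CPM in DOX. Xrcc1, the scaffold of single-strand break repair, had 13.1 CPM in DOX plus AMH and 12.1 CPM in DOX. Parp1, the sensor that coats nicks with poly(ADP-ribose), had 22.1 CPM in DOX plus AMH and 22.9 CPM in DOX. Among the mismatch and nucleotide excision genes none of 3 reached it. Msh6, part of the mismatch sensor, had 9.02 CPM in DOX plus AMH and 11.2 CPM in DOX, a log2 ratio of -0.31 (-0.51 to -0.12). Ercc1, part of the nuclease that cuts 5′ of bulky lesions, had 14.4 CPM in DOX plus AMH and 15.5 CPM in DOX. Ercc5, the nuclease that cuts on the 3′ side, had 24.3 CPM in DOX plus AMH and 26.4 CPM in DOX.

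**Figure D1:**
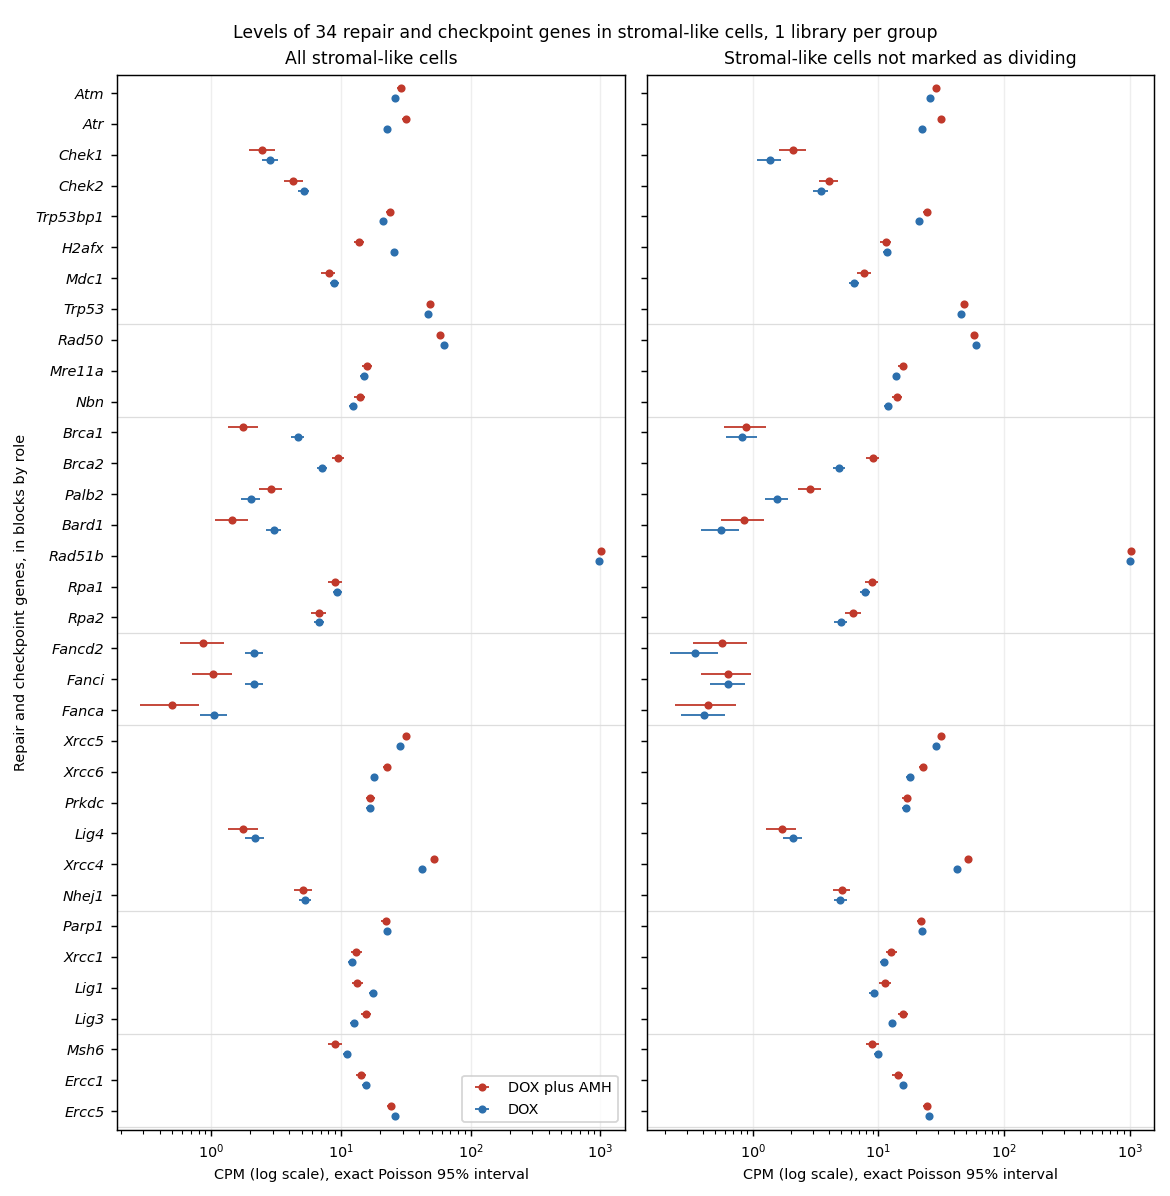
CPM (log axis) of the 34 genes in all stromal-like cells (left) and in those not marked as dividing (right), with DOX plus AMH in red above DOX in blue, bars giving exact Poisson 95% intervals and blocks giving roles. H2afx, Brca1, Bard1, Fancd2, Fanci, Fanca and Lig1 are lower in red on the left, and for these genes red is level with blue or higher on the right.

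The 7 genes that were lower in DOX plus AMH stromal-like cells were among the 8 with the highest ratio of dividing over other cells in DOX. The DOX counts enter both kinds of ratio, so the ratios are not independent. Cells were marked as dividing by at least 10 UMIs per 10000 from 39 S phase and G2/M genes, none of them among the 34. In stromal-like cells the mark fell on 25 of 2855 cells in DOX plus AMH (0.876%, 0.567 to 1.29) and 219 of 4345 in DOX (5.04%, 4.41 to 5.73). Thinned to 2000 UMIs per cell, the shares were 5.64% in DOX plus AMH and 10.0% in DOX, with 16 and 24 shallower cells left out, and at that depth 2 cycle UMIs suffice for the mark. Thinned to 5000 UMIs they were 1.31% and 5.34%, with 188 and 95 cells left out, so the order was kept. Free RNA enters such a mark, and its part was not tested.

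Within the DOX library, 16 of 34 genes were at least 2-fold higher in dividing than in other stromal-like cells and none was 2-fold lower, where 11.2% of all genes were that much higher and 6.92% lower. Fancd2 had 24.0 CPM in dividing and 0.348 CPM in other cells, a log2 ratio of 6.11. Brca1 had 50.8 CPM in dividing and 0.822 CPM in other cells, a log2 ratio of 5.95. Bard1 had 33.0 CPM in dividing and 0.554 CPM in other cells, a log2 ratio of 5.90. The ligase pair and the Fanconi protein thus stood highest, followed by Fanci at 5.02, Fanca at 4.42, H2afx at 4.09, Chek1 at 3.95 and Lig1 at 3.71. Chek2, Brca2, Mdc1, Rpa2 and Palb2 had log2 ratios between 2.31 and 2.89, and Rpa1, Msh6 and Xrcc1 between 1.23 and 1.89. The 219 dividing cells held 7.62% of the UMIs of the class but 83.6% of its Brca1, 83.1% of its Bard1, 85.0% of its Fancd2 and 58.3% of its H2afx UMIs. In DOX plus AMH, 15 of the 33 genes measured were at least 2-fold higher in the 25 dividing cells (12.2% of all genes), and those cells, with 1.50% of the UMIs, held 50.9% of the Brca1 UMIs. Among epithelial-like cells, 12 of 34 genes were at least 2-fold higher in dividing cells in each library, against 6.06% of all genes in DOX plus AMH and 5.39% in DOX.

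Between the dividing stromal-like cells of each library, Brca1, H2afx and Fancd2 lay closer together than over all cells. Brca1 had 60.0 CPM in DOX plus AMH and 50.8 CPM in DOX, a log2 ratio of 0.24 (-0.37 to 0.80). H2afx had 174 CPM in DOX plus AMH and 197 CPM in DOX, a log2 ratio of -0.18 (-0.52 to 0.14). Fancd2 had 20.7 CPM in DOX plus AMH and 24.0 CPM in DOX, a log2 ratio of -0.21 (-1.31 to 0.71). All 3 ratio intervals spanned 0, although the 25 DOX plus AMH cells leave them wide. Bard1, Lig1 and Fanci were at 0.33, 0.33 and 0.39, and Fanca, from 2 UMIs in DOX plus AMH and 46 in DOX, was at -1.09, as low as over all cells. Trp53 at 0.61 (0.13 to 1.06) and Xrcc1 at 0.75 (0.01 to 1.42) were further apart here than over all cells. The dividing cells themselves differed, with a median of 22.1 cycle UMIs per 10000 in DOX plus AMH and 53.4 in DOX, and 11 of 25 in DOX plus AMH and 54 of 219 in DOX lay under 20 per 10000. In DOX plus AMH 11 held more S phase than G2/M UMIs and 14 the reverse, and the part of this mix in the ratios was not tested. Of the dividing DOX cells, 41 held more S phase than G2/M UMIs and 178 the reverse, and the genes were compared between these DOX cells. H2afx had 44.7 CPM in S-led and 233 CPM in G2/M-led cells, a log2 ratio of -2.38. Chek1 had 35.5 CPM in S-led and 17.7 CPM in G2/M-led cells, and Atm had 57.8 CPM in S-led and 26.2 CPM in G2/M-led cells. H2afx was thus higher toward mitosis and Chek1 and Atm toward S phase, while Brca1 had 50.7 CPM in S-led and 50.8 CPM in G2/M-led cells.

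Without the dividing cells, none of the 34 genes was 1.3-fold lower in DOX plus AMH stromal-like cells and 6 were higher, where 6.69% of all genes were lower and 27.5% higher. Brca1 had 0.881 CPM in DOX plus AMH and 0.822 CPM in DOX, a log2 ratio of 0.10 (-0.62 to 0.79). H2afx had 11.4 CPM in DOX plus AMH and 11.6 CPM in DOX, a log2 ratio of -0.03 (-0.21 to 0.16). Fanci had 0.630 CPM in DOX plus AMH and 0.633 CPM in DOX, a log2 ratio of -0.01 (-0.86 to 0.80). The estimates of these 3 genes, lower over all cells, were near 0 among the rest of the class, with wide intervals for Brca1 and Fanci. Fanca was at 0.10, Lig1 at 0.30, Bard1 at 0.62 and Fancd2 at 0.70, the last 2 with intervals that spanned 0. Brca2 had 9.03 CPM in DOX plus AMH and 4.84 CPM in DOX, a log2 ratio of 0.90 (0.66 to 1.14). Palb2 had 2.86 CPM in DOX plus AMH and 1.55 CPM in DOX, a log2 ratio of 0.89 (0.46 to 1.31), so the pair that stood higher over all cells stood further apart here. Chek1 was at 0.61 (0.13 to 1.09) and Atr at 0.51 (0.39 to 0.62). Of the 16 genes that were 2-fold higher in dividing cells, 7 were lower and 2 higher over all cells, and 0 were lower and 5 higher without dividing cells. The 16 were picked on DOX counts that also enter these ratios, so part of the contrast can follow from the choice. Of the other 18 genes, 0 were lower and 1, Atr, was higher in both sets. The median of the 34 without dividing cells was 0.17, against 0.19 for all genes. Adding the TMM shift, computed over all cells of the class, left 5 higher and 1 lower. Leaving out only Leiden cluster 24, with 168 stromal-like cells in DOX and under 50 in DOX plus AMH, left 2 genes lower.

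**Figure D2:**
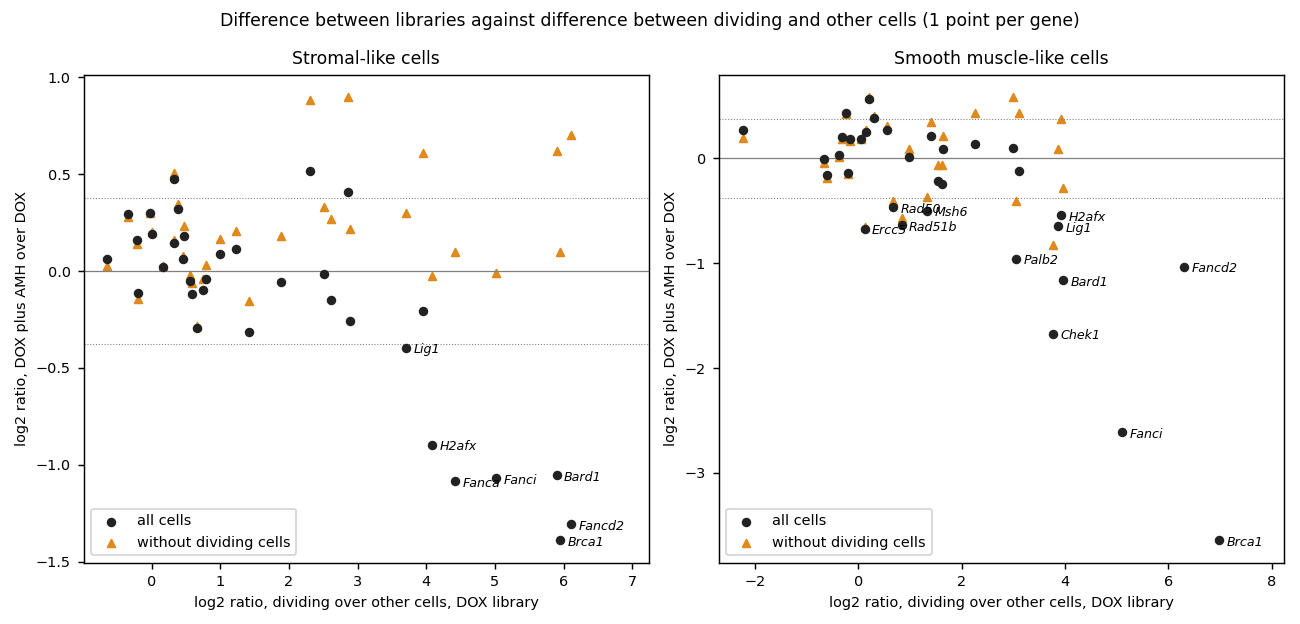
Log2 ratio of DOX plus AMH over DOX (vertical axis) against log2 ratio of dividing over other cells in the DOX library (horizontal axis), 1 point per gene, for stromal-like cells (left) and smooth muscle-like cells (right), with all cells as black dots, non-dividing cells as orange triangles and dotted lines at 1.3-fold. The black points that fall below the lower line in stromal-like cells all lie at or beyond a log2 ratio of 3.71 on the horizontal axis, and no orange point lies below it there. The DOX counts enter both axes.

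Smooth muscle-like cells, the contractile cells of the myometrium, showed more genes lower in DOX plus AMH, 12 of 34 against 3 higher, where 11.6% of all 14642 genes were lower and 22.2% higher. Under TMM scaling, a shift of -0.12 in this class, 12 were lower and 1 higher. With classes from Leiden clusters 6 were lower and 5 higher, and by the mean of per-cell CPM 7 were lower. Brca1 had 0.353 CPM in DOX plus AMH and 4.41 CPM in DOX, a log2 ratio of -3.64 (-5.58 to -2.19) from 4 UMIs in DOX plus AMH and 47 in DOX. Fanci had 0.353 CPM in DOX plus AMH and 2.16 CPM in DOX, a log2 ratio of -2.61 (-4.60 to -1.06). Chek1 had 1.24 CPM in DOX plus AMH and 3.94 CPM in DOX, a log2 ratio of -1.67 (-2.66 to -0.77). These 3 had the lowest ratios of the class, from 14 UMIs or fewer in DOX plus AMH. Bard1 was at -1.16 (-1.87 to -0.49), Fancd2 at -1.03 (-2.12 to -0.01), Palb2 at -0.95 (-1.90 to -0.06), Lig1 at -0.65 and H2afx at -0.54 (-0.84 to -0.25). Ercc5 had 25.3 CPM in DOX plus AMH and 40.4 CPM in DOX, a log2 ratio of -0.67 (-0.89 to -0.45). Rad51b had 80.8 CPM in DOX plus AMH and 126 CPM in DOX, a log2 ratio of -0.64 (-0.76 to -0.52). Rad50 had 48.2 CPM in DOX plus AMH and 66.6 CPM in DOX, a log2 ratio of -0.46 (-0.63 to -0.30), and Msh6 was at -0.50 (-0.83 to -0.17). Lig4 at 0.56, Atr at 0.43 (0.18 to 0.68) and Xrcc4 at 0.38 (0.18 to 0.59) were the higher genes. Of these cells 7 of 1121 in DOX plus AMH (0.624%) and 32 of 943 in DOX (3.39%) were marked as dividing. The 32 DOX cells held 6.22% of the UMIs, and 16 of the 33 genes measured were at least 2-fold higher in them (10.9% of all genes). Without dividing cells 5 of 31 measured genes were lower and 7 higher (9.90% and 23.1% of all genes). Ercc5 at -0.66, Rad51b at -0.57 and Rad50 at -0.41 were about as low as before, with ratio intervals below 0, whereas Chek1 at -0.83 (-1.91 to 0.20) and Palb2 at -0.41 (-1.43 to 0.60) had intervals that spanned 0. H2afx at 0.38 and Lig1 at 0.09 were on the other side of 0 without dividing cells. Brca1, Fancd2 and Fanci were under the 20 UMI minimum there.

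In epithelial-like cells, which line the lumen and glands, Brca1 did not differ by the size used. It had 9.07 CPM in DOX plus AMH and 9.65 CPM in DOX, a log2 ratio of -0.09 (-0.49 to 0.31), and Bard1 had 7.88 CPM in DOX plus AMH and 8.04 CPM in DOX. H2afx had 29.7 CPM in DOX plus AMH and 30.7 CPM in DOX. Here 31 of 187 cells in DOX plus AMH (16.6%) and 62 of 324 in DOX (19.1%) were marked as dividing, shares whose intervals overlapped. After thinning to 2000 UMIs per cell, the shares were 20% (14.5 to 26.5) in DOX plus AMH and 29.4% (24.4 to 34.7) in DOX. The gap was wider at that depth, and the intervals still overlapped. At 5000 UMIs the shares were 17.3% in DOX plus AMH and 19.8% in DOX. Of the 34 genes, 3 were higher and 4 lower (19.4% and 12.4% of all 14672 genes), or 2 higher and 6 lower under TMM scaling. With Leiden classes or by the mean of per-cell CPM, 6 were higher. Chek1 had 9.50 CPM in DOX plus AMH and 6.16 CPM in DOX, a log2 ratio of 0.62 (0.19 to 1.06), and without dividing cells it was at 0.79 (0.10 to 1.49). Lig4 at 0.56 (-0.18 to 1.29) and Fancd2 at 0.40 (-0.15 to 0.94) were higher with intervals that spanned 0. Msh6 had 15.6 CPM in DOX plus AMH and 21.6 CPM in DOX, a log2 ratio of -0.48 (-0.77 to -0.19). Lig3 had 34.8 CPM in DOX plus AMH and 45.3 CPM in DOX, a log2 ratio of -0.38 (-0.58 to -0.19). Both were lower in DOX plus AMH, as were Fanca at -0.62 and Nhej1 at -0.49, with intervals that reached 0, and by the mean of per-cell CPM Fanca was at 1.12 and Nhej1 at 0.05. Without dividing cells 6 were higher and 7 lower (21.1% and 14.9% of all genes), and Brca1 was at -1.78 (-3.78 to -0.22) from 4 UMIs in DOX plus AMH and 22 in DOX.

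The 5 smaller classes held 53 to 271 cells per library, and their genes rest on few UMIs. In pericyte-like cells, which wrap small vessels, 4 of 26 measured genes were higher and 12 lower (19.3% and 21.7% of all genes). Brca1 had 1.09 CPM in DOX plus AMH and 14.7 CPM in DOX, from 2 UMIs in DOX plus AMH and 25 in DOX, a log2 ratio of -3.74 (-6.87 to -1.74). H2afx was at -1.20 (-2.02 to -0.42), Xrcc4 at -0.73 (-1.25 to -0.22) and Xrcc1 at -1.27 (-2.39 to -0.24). In that class 2 of 231 cells in DOX plus AMH and 21 of 154 in DOX were marked as dividing, and without them H2afx was at 0.13. With Leiden classes Xrcc4 was at 0.07. In T, NK or innate lymphoid-like cells 3 of 15 were higher and 9 lower (24.6% and 26.6%), with Brca1 at -4.26 (-9.64 to -1.61) from 1 UMI in DOX plus AMH and 19 in DOX and H2afx at -3.34 (-4.84 to -2.13). There 7 of 61 DOX plus AMH cells and 22 of 53 DOX cells were marked as dividing.

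Mesothelial-like cells, the outer covering of the uterus, had 7 of 32 genes higher and 14 lower (17.5% and 30.8% of all genes), or 7 higher and 9 lower under TMM scaling, a shift of 0.15. Their dividing cells were 12 of 128 in DOX plus AMH and 11 of 87 in DOX. All 3 MRN genes were lower there. Rad50 had 66.2 CPM in DOX plus AMH and 124 CPM in DOX, a log2 ratio of -0.90 (-1.17 to -0.64). Mre11a was at -0.90 (-1.53 to -0.28) and Nbn at -0.88 (-1.58 to -0.20). Chek2 had 8.43 CPM in DOX plus AMH and 22.4 CPM in DOX, a log2 ratio of -1.41 (-2.14 to -0.72). Atm at -0.80 (-1.27 to -0.33) and Atr at -0.67 (-1.13 to -0.22) were lower as well, so the upstream kinases and the MRN sensor stood on the same side. H2afx had 35.0 CPM in DOX plus AMH and 19.8 CPM in DOX, a log2 ratio of 0.82 (0.31 to 1.34), the opposite side from stromal-like cells. Fancd2 at 1.78 (0.19 to 3.80) and Fanci at 1.12 (-0.17 to 2.59) were higher, the second with an interval that spanned 0. In vascular endothelial-like cells 8 of 32 were higher and 2 lower (16.6% and 19.3%), with Xrcc6 at 0.76 (0.16 to 1.39), Prkdc at 0.56 (0.08 to 1.05) and Rad51b at -1.44 (-1.65 to -1.23). Brca1 at 0.29 (-0.64 to 1.27) and H2afx at 0.36 (-0.08 to 0.82) had intervals that spanned 0. In that class 27 of 225 cells in DOX plus AMH (12.0%) and 29 of 142 in DOX (20.4%) were marked as dividing. In macrophage or monocyte-like cells 10 of 29 were higher and 2 lower (28.6% and 16.3%), or 6 higher and 4 lower under TMM scaling, a shift of -0.11, with Xrcc1 at 1.36 (0.46 to 2.34) and Atm at 0.88 (0.14 to 1.65). There 28 of 205 DOX plus AMH cells and 22 of 271 DOX cells were marked as dividing.

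**Figure D3:**
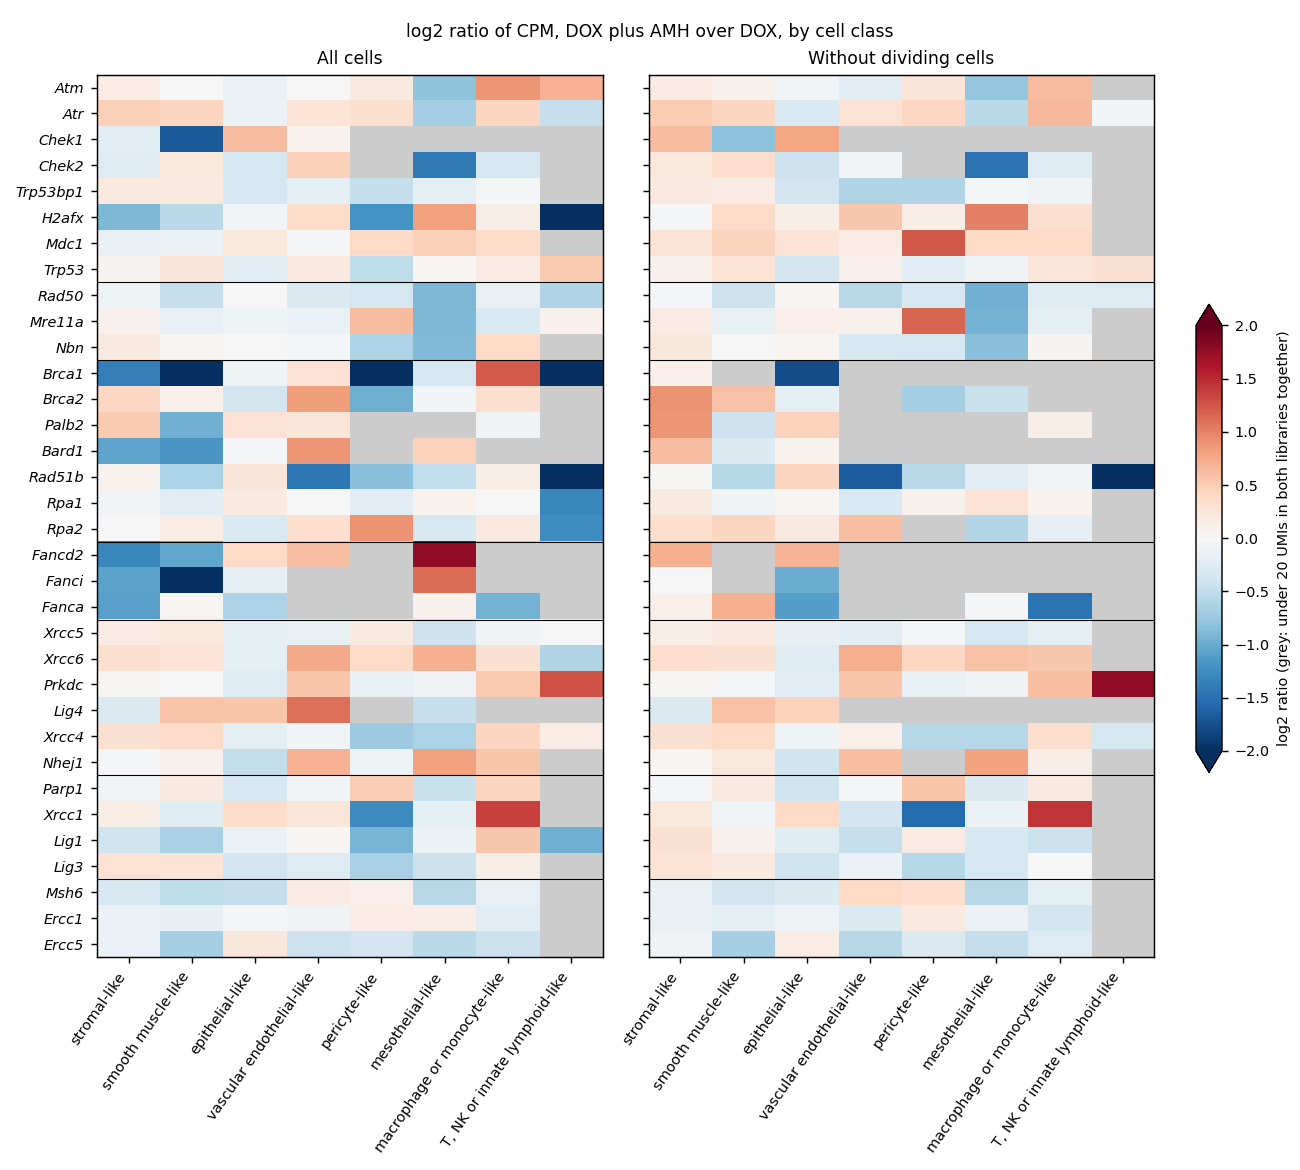
Log2 ratio of DOX plus AMH over DOX for the 34 genes (rows, in blocks by role) in 8 cell classes (columns), over all cells (left) and without dividing cells (right), with red higher and blue lower in DOX plus AMH, grey for genes under 20 UMIs, and colours capped at 2 in each direction. Brca1 is blue in stromal-like, smooth muscle-like, pericyte-like and lymphoid-like cells on the left, and Rad50, Mre11a and Nbn are blue in mesothelial-like cells on both sides.

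Across classes, measured in cells not marked as dividing, Rad51b stood apart. Rad51b lies at chr12:79297282-79814690 on the plus strand of mm10 and spans 517409 bases, and whether intronic reads were counted is not given in the sources used here. Stromal-like cells had 1020.2 CPM in DOX plus AMH and 1002 CPM in DOX. Epithelial-like cells had 203 CPM in DOX plus AMH and 151 CPM in DOX, and smooth muscle-like cells had 80.9 CPM in DOX plus AMH and 119.9 CPM in DOX. The stromal-like level was thus several times that of every other compared class in both libraries. In DOX plus AMH it was 5.02-fold that of epithelial-like cells, the next class. In DOX it was 3.06-fold that of T, NK or innate lymphoid-like cells, the next class there, at 328 CPM (250 to 422). Lymphoid-like cells were the lowest class in DOX plus AMH, at 23.6 CPM. Within stromal-like cells it was uneven. Cluster 13 had 177 CPM in DOX plus AMH and 80.0 CPM in DOX, and cluster 16 had 72.4 CPM in DOX plus AMH and 104 CPM in DOX. The other clusters with at least 50 stromal-like cells in each library lay between 1106 and 1762 CPM in DOX plus AMH. In DOX they lay between 881 and 1826 CPM. A contribution of free stromal RNA to the lower levels in other classes was not tested.

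**Figure D4:**
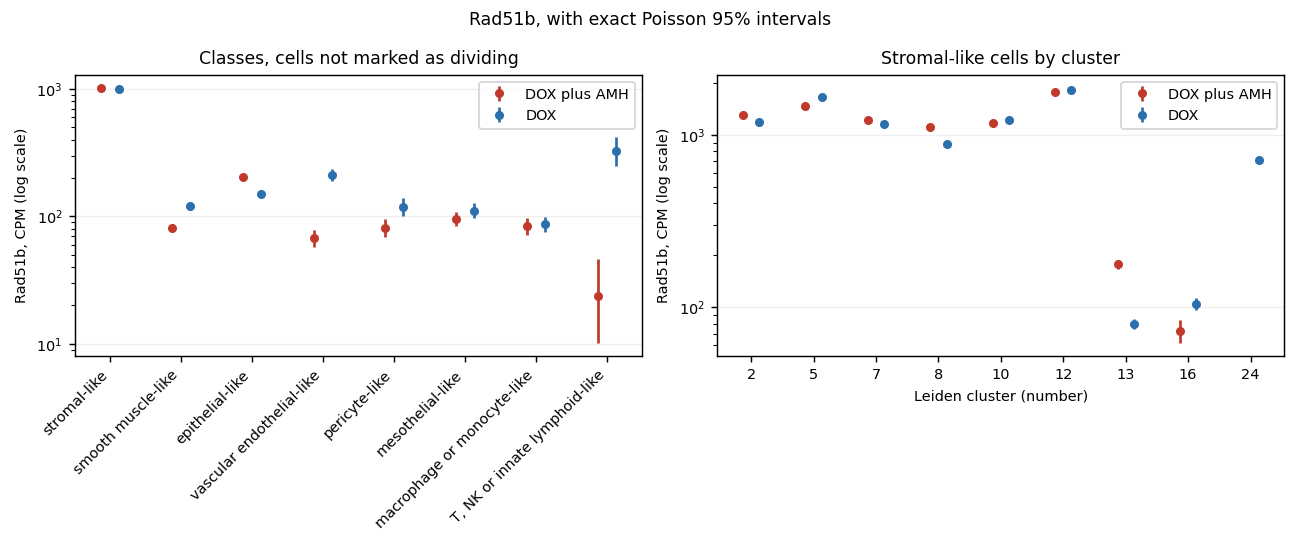
Rad51b level in CPM (log axis) with exact Poisson 95% intervals, DOX plus AMH in red left of DOX in blue, by cell class without dividing cells (left) and by Leiden cluster of the stromal-like cells (right). The stromal-like class is near 1000 in both libraries, and clusters 13 and 16 lie at or below 177 CPM.

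Other genes had their highest level outside the stroma. Ercc5 was highest in mesothelial-like cells in both libraries, with 56.5 CPM in DOX plus AMH and 78.8 CPM in DOX, and its intervals there were apart from those of the next class. Lig3 was highest in epithelial-like cells, with 34.2 CPM in DOX plus AMH and 45.1 CPM in DOX, and its interval was apart from the next class in DOX plus AMH. Trp53bp1 and Xrcc5 were highest in epithelial-like cells too, with 38.5 CPM in DOX plus AMH and 49.4 CPM in DOX for Trp53bp1, and 42.5 CPM in DOX plus AMH and 47.5 CPM in DOX for Xrcc5, with intervals apart from the next class in DOX. The class with the highest level was the same in both libraries for 17 of the 34 genes.

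Of 85 further repair genes, 84 were found and measured in stromal-like cells, among them 8 higher and 11 lower in DOX plus AMH, against the 26.3% and 8.65% of all genes given above. Their median log2 ratio was 0.09. Cdc25c, a phosphatase that opens the way to mitosis, had 0.620 CPM in DOX plus AMH and 2.73 CPM in DOX, a log2 ratio of -2.14. Ube2t, the ubiquitin carrier for Fancd2, had 1.58 CPM in DOX plus AMH and 5.35 CPM in DOX, a log2 ratio of -1.76. Neil3, a glycosylase of replicating cells, had 3.04 CPM in DOX plus AMH and 9.85 CPM in DOX, a log2 ratio of -1.70. Eme1 and Clspn had log2 ratios of -1.25 and -1.09. Without dividing cells Clspn was at -0.01, while Cdc25c was at -0.59 (-2.41 to 0.94) from 5 UMIs in DOX plus AMH and 15 in DOX. Over the 84 genes 14 were higher and 2 lower without dividing cells, where 27.5% of all genes were higher and 6.69% lower. At the other end, Ogg1, the glycosylase for oxidised guanine, had 5.27 CPM in DOX plus AMH and 3.62 CPM in DOX, a log2 ratio of 0.54. Ercc2, a helicase of nucleotide excision repair, had 3.69 CPM in DOX plus AMH and 2.54 CPM in DOX, a log2 ratio of 0.54. Mutyh, Neil1, Rad54l and Ddb2 were between 0.40 and 0.44. Under TMM scaling 0 of these 84 genes were higher and 18 lower, with no share of all genes counted under it.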

How the data were processed

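Single-cell libraries of dissociated uterus were made with 10x Genomics 3′ v3.1 chemistry, per the labels. The authors deposited raw UMI counts per gene and barcode, made with Cell Ranger 7.0.0 on mm10, per the submitters' processing notes. Cells with at least 1000 UMIs, 500 genes and at most 15% mitochondrial UMIs were kept. Scrublet (scanpy 1.11.5) called 0 doublets in DOX plus AMH at its own threshold, so a score above 0.2 was used in both libraries, removing 4.63% of DOX plus AMH and 4.52% of DOX cells. A cell joined a class when at least 3 of its markers were on and their share led the next class by 0.1. A marker was on when its level reached 10% of the mean of its top 1% of cells. Leiden clusters (igraph 0.11.9, 2000 variable genes, 30 components, 15 neighbours, resolution 1) served as an alternative.

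For each class of each library, UMIs were added up and expressed as CPM of all genes. Log2 ratios carry exact intervals from the binomial split of the UMIs, and shares exact binomial intervals. The interval calculation was tested on simulated data. With 1 library per group no test was made. Genes were counted at 1.3-fold with at least 20 UMIs over both libraries, and dividing cells against others at 2-fold. The named genes are all 34 members, with values of both libraries for those with at least 100 UMIs in stromal-like or smooth muscle-like cells or 1.3-fold apart in a compared class, and the 6 highest and 6 lowest other repair genes with at least 100 UMIs, of which 1 is not reported here. In small classes a shorter set is named, picked after the values were seen. The members and lists were chosen with earlier results of these data known. Scaling alternatives were TMM (edgeR 4.0.16) and median of ratios. Annotation overlaps (GENCODE vM21) put an opposite-strand gene over 13 members.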

Additional observations from a re-analysis of the deposited data

Results flagged for a closer look

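These results are pairs of cell classes in which a gene was at least 1.3-fold higher in DOX plus AMH in 1 class and at least 1.3-fold lower in the other, with both counting intervals apart from 0. There were 16 such pairs over 8 genes. This criterion was chosen after a stricter one, with both whole intervals past 1.3-fold, had been seen to find 0 pairs, so it is a looser reading of the same values. The differences are between log2 ratios of 1 library per group and were not tested.

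H2afx was higher in mesothelial-like cells and lower in stromal-like cells by a difference of 1.71, in smooth muscle-like cells by 1.36, in pericyte-like cells by 2.02 and in lymphoid-like cells by 4.15. Without dividing cells the H2afx ratio was at -0.03 in stromal-like cells and had the other sign in smooth muscle-like and pericyte-like cells. Fancd2 was higher in mesothelial-like cells and lower in stromal-like cells by 3.09 and in smooth muscle-like cells by 2.81. Its ratio interval was 0.19 to 3.80 in mesothelial-like cells and -2.12 to -0.01 in smooth muscle-like cells. In smooth muscle-like cells the Fancd2 ratio had the other sign without dividing cells, from under 20 UMIs. Chek1 differed by 2.30 between epithelial-like and smooth muscle-like cells, and Palb2 by 1.47 between stromal-like and smooth muscle-like cells. Atr was higher in stromal-like and in smooth muscle-like cells and lower in mesothelial-like cells, by 1.15 and 1.10. Atm differed by 1.68 between macrophage or monocyte-like and mesothelial-like cells, and Xrcc1 by 2.64 between macrophage or monocyte-like and pericyte-like cells. Xrcc4 was higher in smooth muscle-like cells and lower in pericyte-like cells by 1.11 and in mesothelial-like cells by 1.01. It was also higher in macrophage or monocyte-like cells, with differences of 1.16 from pericyte-like and 1.06 from mesothelial-like cells.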

How the results depend on the processing

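Of 1431 values of single genes under the alternatives, 115 had the other sign than the value reported, 20 of them for genes at least 1.3-fold apart as reported. Those 20 aside, 1303 lay within the counting interval of the value reported and 108 outside it. A minimum of 50 UMIs, and no minimum beyond 1 UMI in each library, change only which genes are counted. The 126 values under each of these could not move, and they are among the 1303. Depth limits the Fanconi anaemia genes and the smaller classes most. The cause of the shifts given here was not tested.

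In stromal-like cells 3 members were higher and 7 lower as reported. TMM and median-of-ratios scaling each gave 0 higher and 11 lower, leaving out dividing cells 6 and 0, and leaving out cluster 24 gave 2 lower. No share of all genes was counted under either scaling. In smooth muscle-like cells 3 were higher and 12 lower. Higher genes numbered 1 under TMM, median-of-ratios scaling, no cell filter and doublets kept, 5 with classes from Leiden clusters and 7 without dividing cells. Lower genes numbered 7 with the mean of per-cell CPM, 6 with Leiden classes and 5 without dividing cells. In epithelial-like cells the 3 higher became 6 with per-cell CPM, Leiden classes or no dividing cells, and the 4 lower became 7 without dividing cells. Among non-dividing cells, the TMM shift was the one computed over all cells of each class. It gave 3 higher in place of 7 in smooth muscle-like and 1 lower in place of 0 in stromal-like cells. Of the other repair genes TMM gave 0 higher and 18 lower in place of 8 and 11.

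Shares marked as dividing, thinned to 2000 UMIs, were 5.64% in DOX plus AMH and 10.0% in DOX stromal-like cells, against 0.876% and 5.04% unthinned and 1.31% and 5.34% at 5000 UMIs, an alternative added after the data were seen, as was leaving out cluster 24. Smooth muscle-like shares were 4.93% and 8.46%, against 0.624% and 3.39% unthinned and 0.601% and 4.01% at 5000. Epithelial-like shares were 20% and 29.4%, against 16.6% and 19.1% unthinned and 17.3% and 19.8% at 5000.

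Among genes at least 1.3-fold apart as reported, signs turned without dividing cells for Brca1 (0.10), Fancd2 (0.70), Fanca (0.10), Lig1 (0.30) and Bard1 (0.62) in stromal-like cells, where Lig1 was at 0.043 without cluster 24. Nearer to 0, Chek1 (0.61), Chek2 (0.22), Mdc1 (0.27), Rpa1 (0.18), Rpa2 (0.33) and Nhej1 (0.03) turned there too. In smooth muscle-like cells signs turned for H2afx (0.38), Fancd2 (1.41, from under 20 UMIs) and Lig1 (0.088), and with Leiden classes for the same genes (0.34, 0.84, again from under 20 UMIs, and 0.21). Under per-cell CPM, Fancd2 in smooth muscle-like cells was at 0.048, and Fanca and Nhej1 in epithelial-like cells at 1.12 and 0.051. In pericyte-like cells H2afx was at 0.13 without dividing cells, Xrcc4 at 0.071 with Leiden classes, and Rad51b at 0.058 with no cell filter, 0.054 with doublets kept and 0.14 with Leiden classes.

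No paired analysis was possible because each group is 1 library and the labels carry no replicate numbers.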
